A study of Homo sapiens with 12 samples.

Results

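The CDK inhibitor genes CDKN1A, CDKN1B, CDKN1C, CDKN2A, CDKN2B, CDKN2C and CDKN2D were followed in 3 human carcinoma cell lines, each treated with 1 of 3 inhibitors of chromatin enzymes or left untreated. The 7 genes were taken by symbol from the 25647 genes that all 12 tables list, and all 7 passed the filter on low counts that left 16394 genes for testing. The lines were A549 (lung adenocarcinoma), MHCC97H (described as hepatocellular carcinoma) and HCT116 (colorectal carcinoma). Cells received TSA at 1 µM (trichostatin A, which blocks histone deacetylases), GSK126 at 50 µM (which blocks EZH2, a histone methyltransferase), S2101 at 100 µM (which blocks LSD1, a histone demethylase), or no compound. Poly(A) RNA was sequenced once for every line and condition, which makes the 3 lines the replicates of a condition and the 4 conditions those of a line. The medium was DMEM for A549 and MHCC97H and RPMI for HCT116, and its part cannot be told apart from that of the line. How long cells were treated, and whether untreated cells had vehicle, is not given in the sources used here.

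CDK inhibitors are small proteins that hold back the kinases driving the cell cycle. The CIP/KIP family, p21 (CDKN1A), p27 (CDKN1B) and p57 (CDKN1C), binds cyclin-CDK complexes of several kinds, with those of CDK2 as the best known targets. The INK4 family, p16 (CDKN2A), p15 (CDKN2B), p18 (CDKN2C) and p19 (CDKN2D), binds CDK4 and CDK6 alone and keeps D-type cyclins from activating them. Both routes leave the retinoblastoma protein unphosphorylated and its partner E2F inactive. CDKN2A also encodes ARF, an unrelated protein that restrains MDM2, through a transcript with its own start and first exon. CDKN2A and CDKN2B are silenced or deleted in many tumours, and A549 is known as a line that has lost both copies of the locus.

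The libraries held 14468304 to 19061367 counted reads, so a count of 3 was worth between 0.157 and 0.207 CPM (a count divided by the size of its library). Intervals on counts given here cover counting error only. The lineage markers of the libraries labelled MHCC97H followed the label in part only. The 8 liver markers summed to 14.5 to 21.8 RPKM there (reads scaled to library size and transcript length), against 3.39 to 8.73 RPKM in A549 and 3.25 to 4.45 in HCT116. HNF4A, a transcription factor of liver and gut, made up much of this sum with 9.3 to 14.4 RPKM in MHCC97H, whereas the liver secretory genes ALB, APOA1 and TTR stayed under 1 RPKM in all 4 of its libraries. At the same time the 8 colon markers summed to 733 to 1590 RPKM, led by KRT20 with 571 to 1230 RPKM. The same colon markers summed to 4.23 to 10.4 RPKM in the A549 libraries and to 5.98 to 7.86 RPKM in the HCT116 libraries. In A549, 7 of 8 lung markers were under 1 RPKM in every library. Line names are used here as the labels give them. The A549 S2101 library also held low levels of genes otherwise read under TSA: 39 genes with 0 reads in untreated A549 and at least 5 CPM under TSA stood there at a median of 8.15% of their TSA level, against 2.41% in the A549 GSK126 library. Each other line has its own set of such genes, 45 in MHCC97H and 6 in HCT116, whose medians under GSK126 and S2101 were 0.165 to 0.908%. With so few genes the HCT116 value is loose: their summed level under GSK126 was 4.64% of that under TSA.

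Promoter sequence was at hand for 6 of the 7 genes (RefSeq, GRCh38.p14). The upstream 250 bases of CDKN1A, which had the largest fitted change of the 7 under TSA, and of the 9p21 locus, which divides the lines, are shown 5′ to 3′ on the gene's own strand, with each GGGCGG or its reverse complement CCGCCC in capitals. These letters are the core of the GC box that Sp1 family factors recognise.
CDKN1A, chr6:36678464-36678713, plus strand: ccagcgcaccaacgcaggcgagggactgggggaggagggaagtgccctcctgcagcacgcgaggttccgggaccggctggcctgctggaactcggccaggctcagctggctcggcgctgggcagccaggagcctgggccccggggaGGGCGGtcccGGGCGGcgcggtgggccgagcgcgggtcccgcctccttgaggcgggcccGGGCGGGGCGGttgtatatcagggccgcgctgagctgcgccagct
CDKN2A, upstream start, chr9:21995325-21995574, minus strand: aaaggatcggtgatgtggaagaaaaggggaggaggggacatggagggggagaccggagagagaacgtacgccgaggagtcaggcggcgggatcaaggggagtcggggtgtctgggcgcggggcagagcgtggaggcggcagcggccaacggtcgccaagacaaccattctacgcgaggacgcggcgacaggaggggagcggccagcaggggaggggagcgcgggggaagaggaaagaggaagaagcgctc
CDKN2A, downstream start, chr9:21974858-21975107, minus strand: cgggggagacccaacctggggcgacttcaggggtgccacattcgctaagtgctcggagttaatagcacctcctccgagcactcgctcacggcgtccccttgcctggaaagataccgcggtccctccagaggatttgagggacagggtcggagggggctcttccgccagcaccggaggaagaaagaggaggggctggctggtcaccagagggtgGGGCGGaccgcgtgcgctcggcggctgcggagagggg
CDKN2B, chr9:22009306-22009555, minus strand: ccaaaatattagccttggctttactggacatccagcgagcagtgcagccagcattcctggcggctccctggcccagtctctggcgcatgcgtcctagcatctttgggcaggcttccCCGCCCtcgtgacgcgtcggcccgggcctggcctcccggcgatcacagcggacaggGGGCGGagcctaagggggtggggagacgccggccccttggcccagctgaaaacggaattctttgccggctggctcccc

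The CDKN1A window held 4 matches, the last 2 of which share 1 base, and lies inside the annotated gene span, which reaches further upstream (chromosome 6, 36676463 to 36687332). The CDKN2B window held 2 matches, the downstream CDKN2A start 1 and the upstream CDKN2A start 0. Among the windows not shown, those of CDKN2C, which has 3 annotated starts, held 0, 5 and 1 matches, that of CDKN2D 2 and that of CDKN1B 1. Of the 35116 promoter windows of this length, 42.6% held at least 1 match, 24.3% at least 2, 7.63% at least 4 and 4.15% at least 5. A match is a description of the letters only. The start of ARF is the upstream one of CDKN2A and that of p16 the downstream one, but the tables give 1 count per gene symbol, so the RNAs of p16 and ARF cannot be told apart.

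Per kilobase, CDKN1A was the highest of the 7 genes in 11 of the 12 libraries. The exception was untreated MHCC97H, where CDKN2A at 21.87 RPKM and CDKN1B at 13.49 RPKM stood above CDKN1A at 11.57 RPKM. The summed level of the 7 genes in A549 was 153.9 RPKM under TSA, 70.22 under GSK126, 55.4 under S2101 and 41.62 untreated. In MHCC97H the sums were 331.5, 107.2, 111.5 and 67.81 RPKM in the same order of conditions, and in HCT116 298.9, 159.1, 135.4 and 131.4 RPKM. TSA libraries had the highest sum in each line, and CDKN1A made up most of it. Its share was 77.0% in A549, 86.7% in MHCC97H and 75.7% in HCT116 under TSA, against 42.2%, 17.1% and 49.3% in the untreated libraries of the same lines.

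**Figure D1:**
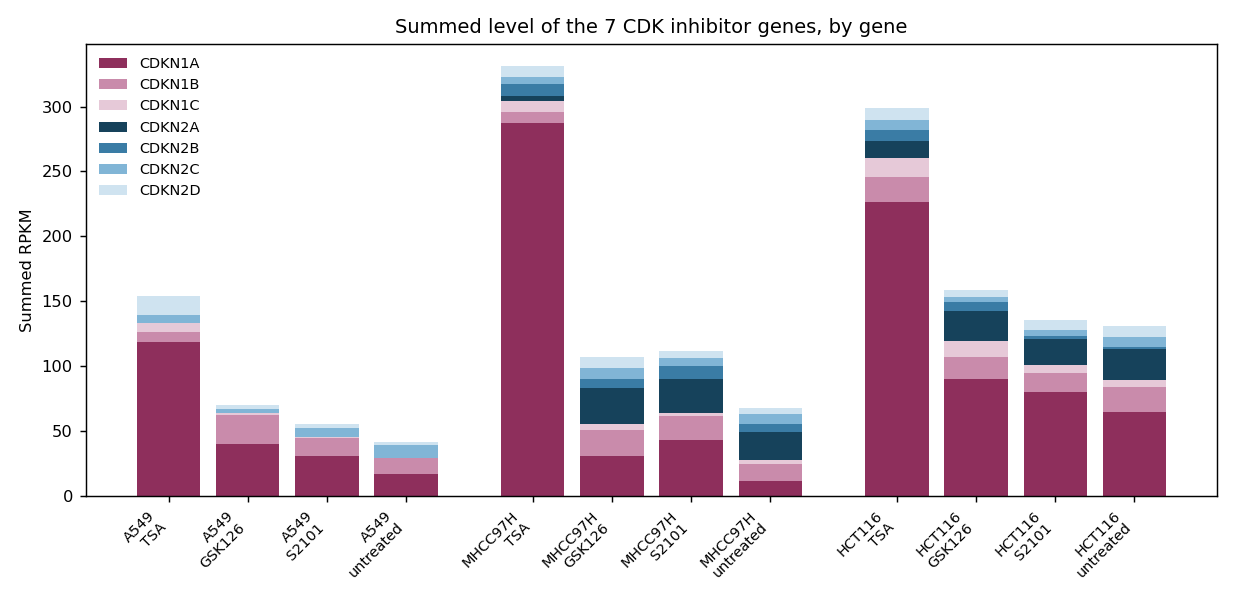
Stacked bars give the summed RPKM of the 7 CDK inhibitor genes in each of the 12 libraries, by line and condition, with CIP/KIP genes in purple and INK4 genes in blue. The TSA bar is the tallest in each line (153.9 RPKM in A549, 331.5 in MHCC97H and 298.9 in HCT116), and CDKN1A fills most of it.

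CDKN1A, the gene of p21, rose under TSA. Its level was 118.6 RPKM in A549, 287.6 in MHCC97H and 226.3 in HCT116 under TSA, against 17.56, 11.57 and 64.75 RPKM in the untreated libraries. The lowest TSA library was above the highest untreated one, as was so in one direction or the other for 22.6% of all genes tested. TMM-scaled CPM averaged 461 ± 199.6 under TSA and 72.5 ± 61.6 in untreated cells (SD, n = 3 each). The fitted log2 change was 2.91 ± 0.45 (SE), with an adjusted p of 0.00277 by edgeR's quasi-likelihood test, and 96.1% of the genes tested had a lower log2 change. Among these genes 34.1% passed at an adjusted p under 0.05, and 2 of the 7 inhibitor genes did, CDKN1A and CDKN1C, both upward, where 17.1% of all genes passed upward. The genes passing numbered 5598 (2798 higher, 2800 lower), or 3483 higher and 2054 lower with library totals in place of TMM scaling, which moved the median log2 change of all genes to 0.24, against 0.07 with TMM. They numbered 12 without A549, 1152 without MHCC97H and 260 without the line term. Fewer cells and less RNA per cell cannot be told apart in such bulk libraries.

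Each line gave its own size of CDKN1A response. The fold of the TSA library over the untreated library, with its 95% counting interval, was 5.78 (5.32 to 6.3) in A549, 21.6 (19.6 to 23.8) in MHCC97H and 3.32 (3.17 to 3.47) in HCT116. With 1 library for each line and condition the difference between lines was not tested. The call for CDKN1A was lost without A549 (log2 change 3.14, adjusted p = 0.0659) and without the line term (2.67, adjusted p = 0.0699). Without MHCC97H it held at a log2 change of 2.14 and an adjusted p of 0.0353 by the same edgeR test.

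GSK126 and S2101 libraries held intermediate CDKN1A levels. Under GSK126 the gene was at 40.5 RPKM in A549, 30.96 in MHCC97H and 90.48 in HCT116, and under S2101 at 31.29, 43.22 and 80.54 RPKM, against the untreated 17.56, 11.57 and 64.75 RPKM. All 6 libraries were above the untreated library of their own line, with folds of 1.21 (1.15 to 1.28) for S2101 in HCT116 up to 3.66 (3.3 to 4.07) for S2101 in MHCC97H. The A549 S2101 library among them is the one that held genes otherwise read under TSA, at a median of 8.15% of their TSA level, and the part of this in its CDKN1A value was not tested. Across lines the fitted log2 changes were 0.92 ± 0.41 (SE, adjusted p = 0.301) under GSK126 and 0.86 ± 0.42 (adjusted p = 0.936) under S2101, and neither passed by edgeR. No gene at all passed in these comparisons: percent called was 0 for GSK126 and 0 for S2101 with edgeR, where 2784 and 821 genes had an unadjusted p under 0.05 and DESeq2 called 1206 and 23. None of the 7 inhibitor genes was among the genes that DESeq2 called for GSK126 or S2101 against untreated cells.

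Set against the other compounds, CDKN1A was again higher under TSA. The log2 change was 1.99 ± 0.43 against GSK126 (adjusted p = 0.0107) and 2.06 ± 0.43 against S2101 (adjusted p = 0.0107), with SE and edgeR's test. With edgeR it was the 1 gene of the 7 to pass in each, where 28.7% of all genes passed for TSA against GSK126 and 26.3% for TSA against S2101. DESeq2 called 3 more: CDKN1B (log2 -0.94, adjusted p = 0.0282) and CDKN2A (-1.56, adjusted p = 0.0444) against GSK126, and CDKN1C (1.96, adjusted p = 0.0124) against S2101. The 2 comparisons and that with untreated cells share the TSA libraries. Without A549 CDKN1A no longer passed in either (adjusted p = 0.103 and 0.106), nor without the line term (0.195 and 0.204), and without MHCC97H it did not pass against S2101 (0.0626). Those fits also left few calls in general: 0 and 17 genes without A549, 14 and 0 without the line term, and 1088 and 0 without MHCC97H, and leaving out the A549 S2101 library left 1944 genes for TSA against S2101.

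**Figure D2:**
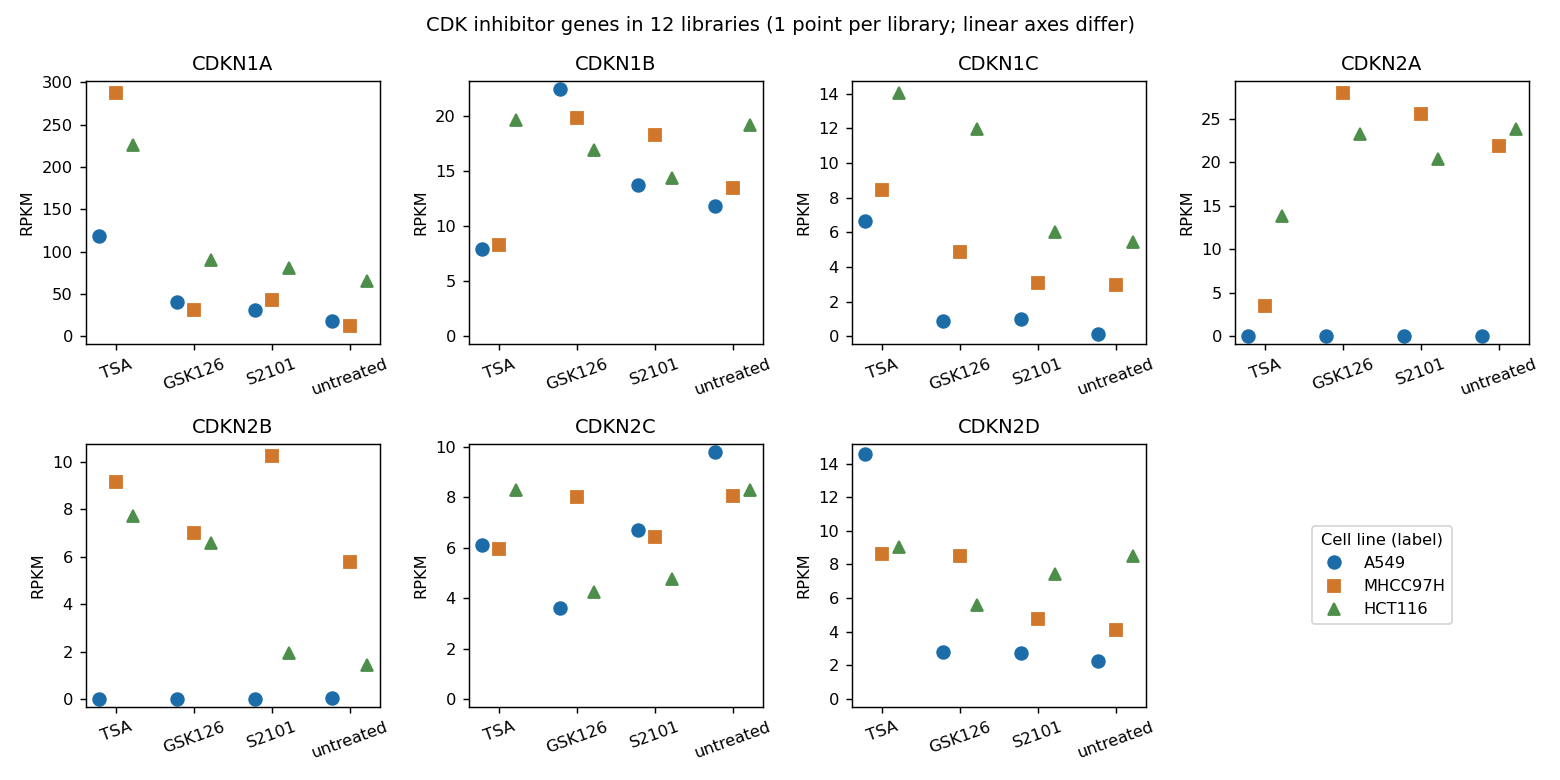
Each panel gives 1 gene, with RPKM on a linear axis for every library, by condition and with a marker for each line. CDKN1A is highest under TSA in all 3 lines (118.6 to 287.6 RPKM), and the A549 points of CDKN2A and CDKN2B lie at or near 0.

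CDKN1C, the gene of p57, an imprinted gene on chromosome 11 (2883218 to 2885775), also rose under TSA. It was at 6.661 RPKM in A549, 8.43 in MHCC97H and 14.04 in HCT116 under TSA, against 0.0985, 2.981 and 5.422 RPKM untreated. The groups did not overlap, as was so on TMM-scaled CPM for 22.6% of all genes tested, in one direction or the other. The fitted log2 change was 2.41 ± 0.68 (SE), with an adjusted p of 0.0255 by edgeR. In A549 it rested on 192 reads under TSA and 3 reads untreated, a fold of 57.9 (95% counting interval 19.5 to 283). The fold was 2.46 in both other lines, with intervals of 1.93 to 3.15 in MHCC97H and 2.05 to 2.96 in HCT116. The call was lost without A549 (log2 change 1.33, adjusted p = 0.067), without MHCC97H (3.09, adjusted p = 0.0894) and without the line term (1.65, adjusted p = 0.506).

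The other 2 compounds gave CDKN1C levels that differed by line. GSK126 libraries had 0.893 RPKM in A549, 4.871 in MHCC97H and 11.96 in HCT116, each above its untreated library with an interval over 1 (folds 8.43, 1.58 and 2.28). S2101 libraries had 0.978, 3.045 and 6.018 RPKM. In MHCC97H and HCT116 the S2101 interval held 1 (folds 1.0 and 1.08), and in A549 the fold was 9.18 (2.85 to 47.1) from 29 reads under S2101 and 3 untreated. That library is the one with low levels of genes otherwise read under TSA, at a median of 8.15% of their TSA level, and the part of this in the CDKN1C value was not tested. The fitted changes did not pass (log2 1.12, adjusted p = 0.431 under GSK126, and 0.5, adjusted p = 1 under S2101, by edgeR).

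CDKN1B, the gene of p27 on chromosome 12 (12717368 to 12722369), did not pass in any of the 8 comparisons of compounds and lines with edgeR. TSA libraries had 7.951 RPKM in A549, 8.265 in MHCC97H and 19.67 in HCT116, GSK126 libraries 22.45, 19.85 and 16.92, S2101 libraries 13.7, 18.26 and 14.37, and untreated libraries 11.85, 13.49 and 19.21. In A549 and MHCC97H the TSA library was the lowest of its line and the GSK126 library the highest, while the 4 HCT116 libraries lay between 14.37 and 19.67 RPKM. The TSA fold was 0.575 (0.495 to 0.666) in A549 and 0.532 (0.461 to 0.613) in MHCC97H, and the HCT116 interval held 1 (0.879 to 1.08). The fitted log2 change under TSA was -0.51 ± 0.33 (SE, adjusted p = 0.247, edgeR) over the 3 lines and -0.82 (adjusted p = 0.0253) without HCT116. p27 is best known for control through its degradation, which RNA levels do not measure.

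**Figure D3:**
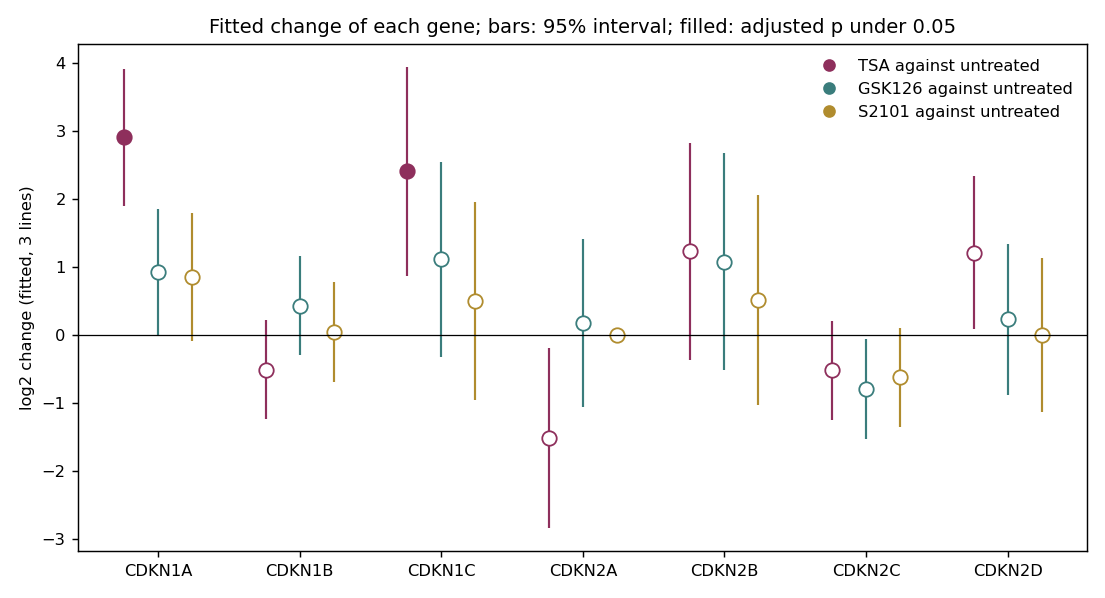
Circles give the fitted log2 change of each gene over the 3 lines for TSA, GSK126 and S2101 against untreated, with 95% intervals as bars, and filled circles mark an adjusted p under 0.05. Only CDKN1A (2.91) and CDKN1C (2.41) under TSA are filled. No interval is drawn for CDKN2A under S2101, where the fitted change was 0. The error is worked out from the change and its test statistic, and that calculation is unstable at a change of 0.

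Among the INK4 genes none passed against untreated cells under any compound, and the genes moved in different directions within single lines. CDKN2A had almost no reads in A549, so its compound comparisons rest on MHCC97H and HCT116. TSA libraries had 3.496 RPKM in MHCC97H and 13.83 in HCT116, against 21.87 and 23.8 RPKM untreated. The TSA folds were 0.139 (0.107 to 0.177) in MHCC97H, where 75 reads under TSA stood against 514 untreated, and 0.552 (0.478 to 0.635) in HCT116. The fitted log2 change was -1.52 ± 0.59 (SE, adjusted p = 0.0735, edgeR). Without HCT116 it was -2.67 (adjusted p = 0.0245, edgeR), but with almost no reads in A549 this rests on the MHCC97H pair alone. That p therefore has no replicate line behind it. GSK126 libraries had 27.94 RPKM in MHCC97H and 23.27 in HCT116, and S2101 libraries 25.5 and 20.37 RPKM. Against the untreated libraries these were folds of 1.23 and 1.01 under GSK126 and of 1.14 and 0.833 under S2101.

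CDKN2B, the gene of p15, a target of TGF-beta signalling, behaved differently from its neighbour CDKN2A in HCT116. There it was at 7.739 RPKM under TSA, 6.585 under GSK126 and 1.919 under S2101, against 1.424 RPKM untreated, with folds of 5.16 (4.12 to 6.52), 4.77 (3.79 to 6.05) and 1.31 (0.998 to 1.73). In MHCC97H it was at 9.16, 7.005 and 10.26 RPKM, against 5.759 RPKM untreated, with folds of 1.38 (1.21 to 1.58), 1.17 (1.02 to 1.35) and 1.75 (1.54 to 1.98). Both lines thus had CDKN2B higher and CDKN2A lower in the TSA library than in the untreated one. The fitted CDKN2B changes did not pass (log2 1.23, adjusted p = 0.200 under TSA, 1.08, adjusted p = 0.509 under GSK126 and 0.52, adjusted p = 1 under S2101, by edgeR).

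CDKN2C, the gene of p18 on chromosome 1 (50960745 to 50974634), was the 1 gene of the 7 with no counting interval above 1 in any treated library. TSA libraries had 6.119 RPKM in A549, 5.968 in MHCC97H and 8.282 in HCT116, GSK126 libraries 3.603, 8.038 and 4.229, and S2101 libraries 6.697, 6.445 and 4.743, against 9.823, 8.051 and 8.296 RPKM untreated. All 9 treated libraries lay under their untreated one, and in 7 of them the interval was below 1. Such intervals are common at this depth: taken over the same 9 pairs, 30.8% of the values of all tested genes with more than 3 reads in the pair lay below 1 and 28.6% above it. The lowest fold was 0.341 (0.274 to 0.422), for GSK126 in A549. Fitted log2 changes were -0.52 ± 0.32 under TSA, -0.80 ± 0.33 under GSK126 and -0.62 ± 0.32 under S2101 (SE, adjusted p = 0.233, 0.253 and 0.936, edgeR), so that none passed.

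CDKN2D, the gene of p19 on chromosome 19 (10566460 to 10568979), varied mainly in A549. That line had 14.57 RPKM under TSA, 2.767 under GSK126 and 2.731 under S2101, against 2.252 RPKM untreated, and the TSA fold was 5.54 (4.1 to 7.63). MHCC97H had 8.627, 8.495 and 4.77 RPKM, against 4.09 untreated, with a TSA fold of 1.83 (1.42 to 2.38). HCT116 had 9.04, 5.602 and 7.423 RPKM, against 8.478 untreated, and its TSA interval held 1 (0.825 to 1.24). The fitted log2 change under TSA was 1.22 ± 0.50 (SE, adjusted p = 0.0893, edgeR). It passed with DESeq2 (1.25, adjusted p = 0.0416) and without HCT116 (1.86, adjusted p = 0.0451). Across the treated libraries with more than 3 reads in the pair, the interval was above 1 in 9 of 9 for CDKN1A, 7 of 9 for CDKN1C, 5 of 6 for CDKN2B, 3 of 9 for CDKN1B, 3 of 9 for CDKN2D, 2 of 6 for CDKN2A and 0 of 9 for CDKN2C. It was below 1 in 0, 0, 0, 3, 1, 3 and 7 of them in the same order of genes. Among all tested genes, the share with an interval above 1 ran from 20.5% under S2101 in HCT116 to 38.4% under TSA in MHCC97H, and the share below 1 from 24.5% under S2101 in MHCC97H to 39.9% under TSA in A549.

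**Figure D4:**
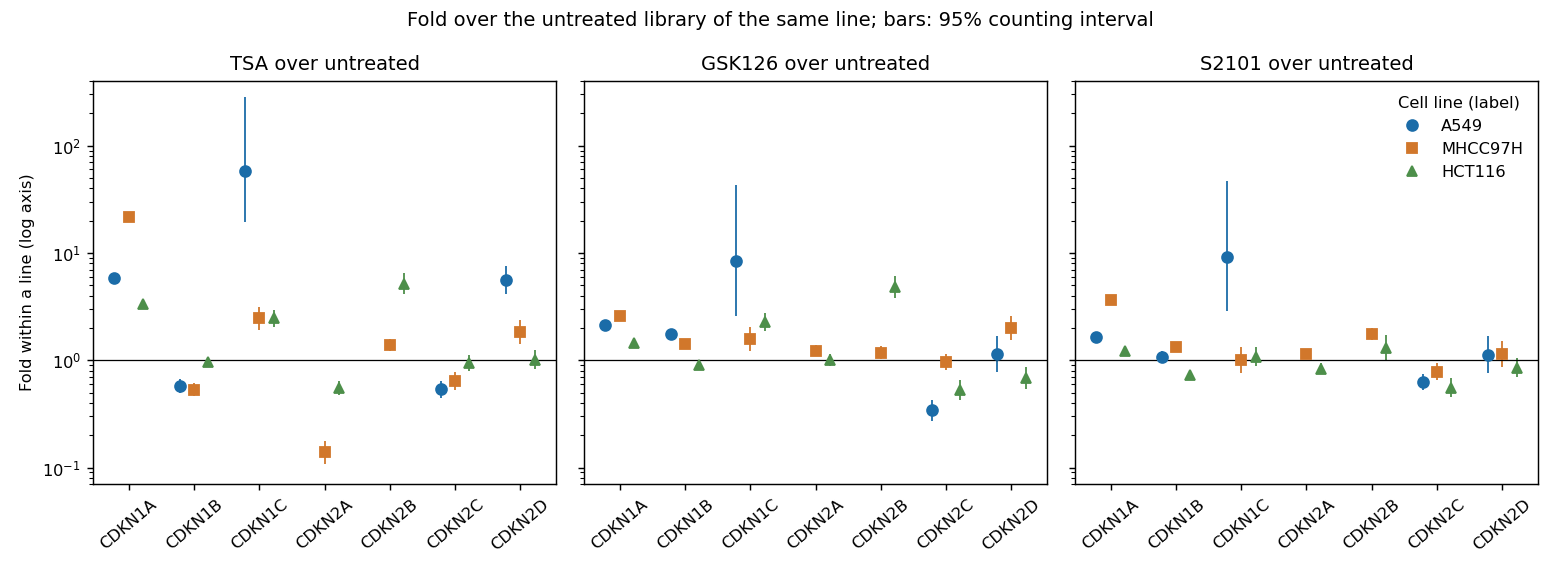
Points give the fold of a treated library over the untreated library of the same line on a log axis, with 95% counting intervals as bars, for TSA, GSK126 and S2101. CDKN1A lies above 1 in all 9 pairs and CDKN2C in none, and CDKN2A and CDKN2B have no A549 point because both libraries of a pair held at most 3 reads.

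The lines differed most in the 2 genes on chromosome 9. In A549, CDKN2A (21967752 to 21995324) had 1 read under TSA and 0 in each of the other 3 libraries, against 75 to 713 reads in MHCC97H and 302 to 569 in HCT116. CDKN2B (22002903 to 22009313) had 2 reads in untreated A549 and 0 in the 3 treated libraries, against 370 to 784 reads in MHCC97H and 93 to 462 in HCT116. The ratio of the pooled CDKN2A counts, A549 over HCT116, was 0.000581 (95% counting interval 1.47e-05 to 0.00324), and A549 over MHCC97H it was 0.000509 (1.29e-05 to 0.00284). For CDKN2B the ratios were 0.00204 (0.000246 to 0.00738) and 0.000934 (0.000113 to 0.00338). Both genes passed in edgeR's test over the 4 conditions, CDKN2A with adjusted p = 2.29e-05 against HCT116 and 2.95e-05 against MHCC97H, CDKN2B with 0.000106 and 5.69e-05. None of the compounds brought either gene above 3 reads in A549.

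Genes around the locus did not all share this near absence of reads. MTAP, the methylthioadenosine phosphorylase gene next to CDKN2A (21802636 to 21941115), had 87 to 230 reads in the A549 libraries, against 502 to 1180 in MHCC97H and 1656 to 3937 in HCT116. Its log2 change was -2.50 ± 0.16 against MHCC97H and -4.04 ± 0.17 against HCT116 (SE, adjusted p = 1.18e-05 and 1.68e-06, edgeR). CDKN2B-AS1, a long non-coding RNA on the opposite strand (21994791 to 22128142), had 388 reads in the 4 A549 libraries, against 714 in MHCC97H and 583 in HCT116. It spans all 6411 bases of CDKN2B and 534 bases of CDKN2A, and whether counting used strand is not given, which makes reads in shared stretches uncertain. TUSC1, on the far side, was the reverse case, with 51 to 144 reads in each A549 library, 0 in each MHCC97H library and at most 1 in HCT116. Of the 8 neighbours tested, 5 were higher and 2 lower in A549 than in MHCC97H, where 22.8% of all genes were higher and 20.7% lower, and 4 were higher and 1 lower than in HCT116, where 23.1% of all genes were higher and 21.1% lower.

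**Figure D5:**
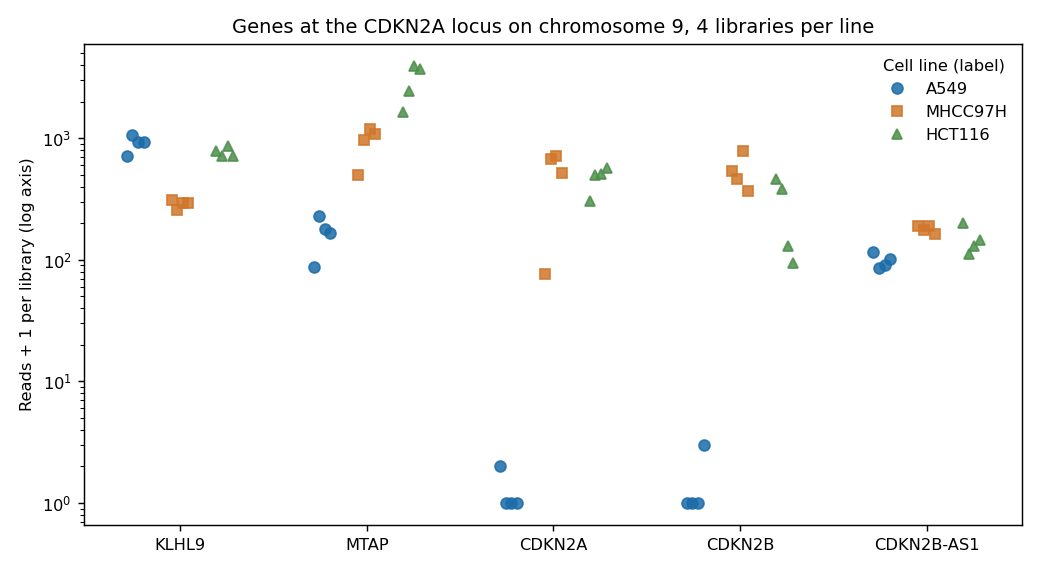
Points give reads plus 1 on a log axis for 5 genes of the chromosome 9 locus in the 4 libraries of each line, ordered within a line as TSA, GSK126, S2101, untreated. The A549 points of CDKN2A and CDKN2B lie at 0 to 2 reads, while MTAP holds 87 to 230 reads in A549 and KLHL9 and CDKN2B-AS1 are read in every library.

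Outside chromosome 9, A549 differed from both other lines in CDKN1C and from HCT116 in CDKN1A. CDKN1C was lower in A549, with a median of 0.935 RPKM over its 4 libraries, against 3.958 RPKM in MHCC97H and 8.99 in HCT116. Its log2 change was -1.93 ± 0.59 against MHCC97H (adjusted p = 0.0254) and -2.74 ± 0.60 against HCT116 (adjusted p = 0.0054, SE and edgeR). Without the A549 S2101 library the first of these did not pass (-2.03, adjusted p = 0.0647), nor without the GSK126, the S2101 or the untreated libraries (adjusted p = 0.123, 0.108 and 0.0697). The HCT116 comparison missed only without the GSK126 libraries (-2.42, adjusted p = 0.0519). CDKN1A was lower in A549 than in HCT116 (log2 -1.29 ± 0.36, adjusted p = 0.0169), a call lost without the A549 S2101 library (adjusted p = 0.0532), the GSK126 libraries (0.0554) or the S2101 libraries (0.0774). Against MHCC97H it did not pass (-0.39, adjusted p = 0.413), and CDKN1B passed between no pair of lines (adjusted p = 0.326 to 0.696, edgeR). CDKN2D did not pass over the 4 conditions either, but without the TSA libraries it was lower in A549 than in MHCC97H (-1.23, adjusted p = 0.00529) and than in HCT116 (-1.39, adjusted p = 0.00265).

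In all, 3 of the 7 genes were lower in A549 than in MHCC97H, where 43.5% of all genes passed and 20.7% were lower, and 4 of 7 were lower than in HCT116, where 44.1% passed and 21.1% were lower. Both counts include CDKN2A and CDKN2B, whose locus A549 is known to have lost, so they do not describe the family as a whole. Apart from these genes, only CDKN1C was lower than in MHCC97H, and only CDKN1C and CDKN1A than in HCT116. Without the S2101 libraries the genes passing numbered 4038 and 4401, against 7129 and 7232 with them, and without the untreated libraries 4581 passed against MHCC97H. None of the 7 passed between MHCC97H and HCT116 with edgeR, where 55.1% of all genes passed (27.4% higher and 27.8% lower). The nearest were CDKN2B, higher in MHCC97H by 1.33 ± 0.52 on the log2 scale (adjusted p = 0.0528), and CDKN1A, with -0.90 ± 0.37 (adjusted p = 0.064). Both passed with DESeq2 (CDKN2B 1.29, adjusted p = 0.0418, and CDKN1A -0.90, adjusted p = 0.0283), and CDKN1A passed with library totals (-1.09, adjusted p = 0.0343). Without the TSA libraries CDKN1A passed at -1.41 (adjusted p = 0.00115), CDKN2B at 1.68 (0.00844) and CDKN2C at 0.67 (0.0433), again by edgeR. CDKN2C had similar levels in the 3 lines, 6.56 ± 2.56 RPKM in A549, 7.13 ± 1.08 in MHCC97H and 6.39 ± 2.21 in HCT116 (SD, n = 4 each), differences within the spread of a line.

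The genes that the inhibitors act on and through were read in the same libraries. Of 13 CDKs and cyclins, 4 fell and 2 rose under TSA (adjusted p under 0.05, edgeR, as for the other lists), where 17.1% of all genes fell and 17.1% rose, with a median log2 change of -0.83, against 0.07 over all genes tested. Those that fell were CCNA2 (cyclin A2, log2 -2.65 ± 0.54), CDK1 (-1.92 ± 0.37), CCNB1 (cyclin B1, -1.50 ± 0.43) and CDK4 (-1.29 ± 0.16). CDK4, which INK4 proteins bind as they do CDK6, had 92.6 CPM in A549, 148.3 in MHCC97H and 58.7 in HCT116 under TSA, against 221.0, 293.2 and 181.3 CPM untreated. CDK6 did not pass and differed in direction by line. It had 30.5 CPM in A549, 80.0 in MHCC97H and 231.2 in HCT116 under TSA, against 229.3, 159.7 and 112.6 CPM untreated. The genes that rose were CCNA1, with 371 reads in A549, 2 in MHCC97H and 11 in HCT116 under TSA, and CCND2, with 188, 43 and 5 reads. Both had 0 reads in the 3 untreated libraries, so that, set against 3 reads as the group's floor, CCNA1 was at least 124-fold and CCND2 at least 76-fold higher, and the list's median was -0.83 with these bounds as well.

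The RB and E2F families fell in part. Of 13 genes, 8 fell and none rose under TSA, where 17.1% of all genes fell and 17.1% rose. The median log2 change was -1.12, against 0.07 over all genes tested. E2F3 (-1.75 ± 0.26), TFDP1 (-1.56 ± 0.20), E2F1 (-1.55 ± 0.37) and E2F5 (-1.38 ± 0.34) had the largest changes, while RB1, the retinoblastoma gene itself, did not pass (-0.12, adjusted p = 0.614, edgeR). Of 16 genes that E2F is known to drive, 12 fell, none rose and 4 did not pass, with a median of -1.26. The fall was not uniform over genes and lines. TK1 averaged 356.1 ± 157.7 CPM under TSA, against 197.0 ± 96.2 untreated (SD, n = 3 each). RRM2 had 503.9 CPM in A549, 61.3 in MHCC97H and 317.0 in HCT116 under TSA, against 436.8, 150.8 and 502.4 CPM untreated. TYMS, the thymidylate synthase gene, fell by 3.41 on the log2 scale, and the replication genes MCM5, UHRF1 and MCM3 changed by -2.01, -1.89 and -1.89. CCNA2 and TYMS were lower in the TSA library than in the untreated one in all 3 lines, with 20.99, 5.0 and 29.3 CPM for CCNA2 in A549, MHCC97H and HCT116 under TSA, against 110.9, 98.5 and 116.9 CPM untreated.

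Of 19 regulators of the inhibitor genes, 5 were higher and 4 lower under TSA, shares near the 17.1% of all genes in each direction, with a median log2 change of 0.51. FOXO4, of the forkhead factors that act on CDKN1B and CDKN1A, rose (2.59 ± 0.58), as did KDM6B (1.17 ± 0.33), a demethylase of the mark that EZH2 sets. SMAD3, a transducer of TGF-beta signals, fell (-1.78 ± 0.45). Of 14 genes for the turnover of inhibitor proteins, 6 fell and 2 rose (median -0.45), led by the cullins CUL1 (-1.86 ± 0.34) and CUL4A (-1.50 ± 0.16), CKS1B (-1.68 ± 0.26), which helps SKP2 bind p27, and RBX1 (-1.23 ± 0.24). SKP2 itself, the F-box protein that marks p27 for degradation, was among the 6 (-0.93 ± 0.20).

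Neighbours of CDKN1A and CDKN1C did not move with them as a group. Under TSA 17.1% of all genes tested rose and 17.1% fell, with a median log2 change of 0.07. Of 6 tested around CDKN1A on chromosome 6, 2 rose and 2 fell under TSA (median -0.05). C6orf89 was at 1.01 ± 0.19, KCTD20 at 0.43 ± 0.14, PPIL1 at -1.03 ± 0.21 and SRSF3 at -1.28 ± 0.19. Of 10 tested in the imprinted region around CDKN1C on chromosome 11, 3 rose and 2 fell (median 0.06). IGF2 rose (3.38 ± 0.83), KCNQ1OT1, the non-coding RNA whose gene carries the region's imprinting centre, rose by less (0.48 ± 0.13), and SLC22A18AS fell by 2.41. On chromosome 9, MLLT3 rose (3.29 ± 0.82) and MTAP fell by 1.11 among 8 tested (median -0.04). Under library totals the medians on chromosomes 6 and 9 turned to 0.125 and 0.144 as that of all genes moved to 0.24, and with RLE size factors they kept their sign.

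The same counts of listed genes were found with RLE size factors, and without the A549 S2101 library in 7 of the 8 lists. With library totals 1 E2F target rose and 11 fell, 6 regulators rose and 4 fell, and 2 turnover genes rose and 5 fell. The counts of the other lists stayed the same with library totals. None of the listed genes passed without A549, when 12 genes passed in all, and without MHCC97H 10 of the 16 E2F targets and 2 of the 13 RB and E2F genes fell. Without HCT116, 8 E2F targets and 5 RB and E2F genes fell. Without the line term 1 E2F target fell and no gene of the RB and E2F families or of the CDKs and cyclins passed, when 260 genes passed in all. Under GSK126 and S2101 no listed gene passed, as no gene did. The median log2 change of the E2F targets was -1.26 under GSK126 and -0.63 under S2101, that of the CDKs and cyclins -0.84 and -0.61, against 0.01 and 0.00 over all genes tested.

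Across the 12 libraries some inhibitor genes had like patterns. On log2 values of CPM plus 1, Pearson's r was 0.869 between CDKN2A and CDKN2B, 0.815 between CDKN1C and CDKN2D and 0.713 between CDKN1A and CDKN1C, and -0.421 between CDKN1A and CDKN2C. These libraries share 3 lines and 4 conditions and are not independent, so no test is given. For CDKN2A and CDKN2B, the 4 A549 libraries all lie at 0 to 2 reads. Once each line's mean was taken out, r between these 2 genes was -0.16. On such centred values r was 0.809 between CDKN1C and CDKN2D and 0.734 between CDKN1A and CDKN1C. It was -0.401 between CDKN1A and CDKN2C and -0.756 between CDKN1A and CDKN2A, a pair at 0.072 before centring. Among 13665 genes with a mean of at least 2 CPM, those most like CDKN1A over the 12 libraries were TMEM110-MUSTN1 (0.963), GSN (0.959) and NPRL2 (0.953). With each line's mean taken out they were SARM1 (0.978), TECPR1 (0.978) and GPR108 (0.976). On values not centred, the nearest to CDKN1C were ISG15 (0.962), RING1 (0.947) and GNAI2 (0.947). To CDKN2A they were CTAGE9 (0.993), SLC38A5 (0.989) and TRIM72 (0.988). On centred values the nearest to CDKN1C were POR (0.967), LINC00685 (0.964) and CSRNP2 (0.963). To CDKN2A they were then CD2AP (0.973), SLC17A9 (0.968) and PDCL (0.967).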

How the data were processed

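Each library has a table of raw read counts and RPKM values by gene symbol, both computed by the authors, with the longest transcript as length, per the file headers. The submitters' processing notes name the builds GRCh38 and hg38. The aligner, counter and strand setting are not given. The 7 genes and the lists were chosen with earlier results of these data known. Entries naming no gene (11) were left out, and 23 of 26 symbols turned into dates were restored.

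Counts were fitted with edgeR 4.0.16 (quasi-likelihood, TMM factors 0.891 to 1.109, filterByExpr) over all 12 libraries on condition plus cell line (6 residual degrees of freedom). Treated and untreated libraries of a line are paired by the line that the labels name. Calls are Benjamini-Hochberg adjusted p under 0.05 over 16394 genes. The p-values rest on the spread left after the condition and line terms, not on a spread between repeat cultures. The SE and 95% intervals of fitted changes were worked out from the change and its test statistic. Folds within a line carry an exact 95% binomial interval and no test. Alternatives were RLE factors, library totals, no filter, at least 10 CPM in 3 libraries, DESeq2 1.42.0, no line term, and fits without a line, a condition or the A549 S2101 library. List counts under some of these were added after the data were seen. The fit was also run on simulated data, but these held no differences between lines, so that run does not bear on how the line term works here. Coordinates and promoters are from RefSeq (GRCh38.p14). Named genes are all 7 members, up to 4 genes per list with the largest change among those that passed, any neighbour on chromosomes 9 and 11, and the 3 genes of highest correlation, and 1 listed gene is not reported here. RB1, SKP2, CDK6, TK1, RRM2 and, in the locus plot, KLHL9 were chosen after their values were seen.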

Additional observations from a re-analysis of the deposited data

Results flagged for a closer look

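In 3 cases 2 lines had counting intervals on opposite sides of 1 under the same compound. With 1 library per line and condition, the difference between lines was not tested in any of them. Such intervals are common: over all compounds and lines, 28.6% of the values of all tested genes lay above 1 and 30.8% below. How many of all genes had 2 lines on opposite sides was not counted, so these cases are not shown to be unusual. CDKN1B under S2101 stood at a fold of 1.33 over untreated in MHCC97H (95% counting interval 1.19 to 1.48) and 0.729 in HCT116 (0.655 to 0.81), and in A549 the interval held 1 (0.942 to 1.21). CDKN2A under S2101 stood at 1.14 in MHCC97H (1.02 to 1.28) and 0.833 in HCT116 (0.738 to 0.941). CDKN2D under GSK126 stood at 2.01 in MHCC97H (1.56 to 2.59) and 0.682 in HCT116 (0.537 to 0.862), with 197 reads under GSK126 and 93 untreated in MHCC97H, and 115 and 196 in HCT116. The libraries labelled MHCC97H are those whose colon markers summed to 733 to 1590 RPKM, and the part of this in the 3 differences was not tested.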

How the results depend on the processing

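No member's change reversed past the threshold under any alternative run: 522 alternative fits of a member kept its side of the threshold, 18 lost a call and 20 gained one. Most of the 522 had no call in the main fit, so that count says little about how firmly the calls held. Of the 18 lost, 4 came without the line term (the replicate block) and 4 without A549. Of those gained, 6 came with DESeq2 and 7 without HCT116, and the CDKN2A calls among the latter rest on the MHCC97H libraries alone. For the genes passing in TSA against untreated, 5598 in the main fit became 260 with no replicate block, and leaving out 1 line gave 12 (A549), 1152 (MHCC97H) and 6487 (HCT116). For TSA against GSK126, 4707 became 14 with no replicate block, and 0 (A549), 1088 (MHCC97H) and 5495 (HCT116) leaving out 1 line. For TSA against S2101, 4306 became 0 with no replicate block, 17 (A549), 0 (MHCC97H) and 5141 (HCT116) leaving out 1 line, and 1944 without the A549 S2101 library. For GSK126 against untreated, the count of 0 became 7 without a filter, 7 with at least 10 CPM in 3 libraries and 1206 with DESeq2, and for S2101 against untreated it became 23 with DESeq2. For the lines, leaving out 1 condition gave 4401 to 8989 genes for A549 against HCT116 and 4038 to 8901 for A549 against MHCC97H. The cause of these differences was not tested, beyond the smaller number of libraries in some fits. Library totals gave 2951 genes higher and 1844 lower for TSA against GSK126, where TMM gave 2377 and 2330, and 3659 higher and 5594 lower for MHCC97H against HCT116, where TMM gave 4486 and 4555. Levels per length kept within 1 SD under TMM scaling in 49 of 49 means. That SD is a spread over lines or conditions, mostly large beside the rescaling, so this check is a weak one. Ratios within a line were computed again with a smaller constant added to the CPM, or with library totals. Of these 126 ratios, 121 stayed within a margin of the main ratio that was set by the width of the counting interval. Whether a ratio lay inside its interval was not checked. The A549 pairs of CDKN2A and CDKN2B, which had no interval, are counted among the 121. Depth limits CDKN2A and CDKN2B in A549, where 0 to 2 reads were found.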
